A study of Saccharomyces cerevisiae with 16 samples.

Results

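The comparison is of ribosome footprints in wild-type (WT) budding yeast 6 h against 3 h after transfer to sporulation medium. It takes the 4 WT footprint libraries of the 16 libraries in the study, 2 at each time. Every gene whose RPKM averaged 5 or more across these 4 libraries was kept, which gave 5299 of the 6679 genes in the deposited table. RPKM counts the reads of a gene relative to its length and to the depth of the library. The kept gene closest to this limit was YAL037W, at 4.99 and 7.62 RPKM at 3 h and 2.79 and 4.66 RPKM at 6 h. The gene just outside it was YGL113W, at 6.96 and 5.41 RPKM at 3 h and 3.49 and 4.11 RPKM at 6 h.

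The study profiled footprints, the stretches of mRNA shielded by translating ribosomes, and mRNA fragments in the SK1 background, a strain that sporulates fast and in synchrony. Cells were WT or carried the Cas9-made deletion labelled dbp1 delete (Cas9), and each strain was sampled at 3 h and at 6 h in sporulation medium. All cells received 100 µM cycloheximide, which halts elongating ribosomes, for 1 min before collection. Each of the 8 groups held 2 libraries, numbered replicates 3 and 4 in WT and 2 and 4 in the deletion, and nothing in the labels says that they came from separate cultures, so the p-values reflect nothing more than how far these libraries differ from each other, which can be technical.

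Starved diploid yeast leave the mitotic cycle, copy their DNA, recombine their chromosomes and divide them in meiosis I and meiosis II without another round of replication. The transcription factor Ime1 starts the programme, and a second factor, Ndt80, switches on the genes of the divisions and of spore formation. Each nucleus is then enclosed by a new prospore membrane, and a spore wall of mannan, glucan, chitosan and dityrosine layers is laid down around it.

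DBP1 itself read as its labels say: its footprints were at 417 and 429 RPKM at 3 h and 164 and 147 RPKM at 6 h in WT, and between 0.449 and 1.12 RPKM in the 4 deletion footprint libraries. Depth was similar at both times: 4578411 reads for replicate 3 and 6174833 for replicate 4 at 3 h, then 5294778 and 4619171 at 6 h, so that genes of 4 to 6 RPKM rested on a median of 27 reads. Replicates differed by a median of 0.136 on the log2 scale at 3 h and 0.118 at 6 h. The reads were concentrated in fewer genes at 6 h, when 154 and 149 genes held 50% of them, against 232 and 216 genes at 3 h.

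Because RPKM is relative within a library, a larger share for some genes lowers the values of the rest. The median log2 change over the 5299 genes was -0.96 in RPKM and -0.02 after each library was divided by its median ratio to the geometric mean of the footprint libraries. A gene is therefore said to have risen or fallen only where limma called it in that direction on both scales, at an adjusted p under 0.05. Below, levels are RPKM as deposited, and changes are log2 differences (6 h minus 3 h) after rescaling unless another scale is named. By this rule 1067 genes rose, 20.1% of those tested, and 1706 fell, 32.2%, while 2526 did neither. In RPKM alone 1067 genes were higher and 3354 lower, and after rescaling 1917 were higher and 1706 lower. The number that fell rests on both pairs of WT libraries, being 666 without WT replicate 3 and 567 without WT replicate 4, while 836 and 811 rose. Falls on a list under such an omission are to be read beside these numbers for all 5299 genes. Where such an omission ended the call of a gene, the adjusted p is given first without replicate 3 and then without replicate 4. This was read only for genes named by the rules given under processing, so other genes in the text have no such check. A library made from many cells gives an average, so fewer cells of a type and less footprint RNA per cell cannot be told apart.

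After rescaling, rises spanned a far wider range than falls. Genes that rose had a median level of 36.7 RPKM at 3 h and 148 RPKM at 6 h, with a median change of 2.53, and 217 of them exceeded 4 on the log2 scale. Genes that fell went from a median of 69.8 to 17.5 RPKM, with a median change of -0.95, and 29 of them fell by more than 2. No faller passed a fall of 4. The call on both scales bears on this contrast: all 1067 risers exceeded 1 after rescaling, while 756 of the 1706 fallers fell by more than 1, and in RPKM the median changes were 1.60 and -1.87. The genes that rose took 9.07% and 8.88% of WT footprint reads at 3 h and 62.9% and 63.9% at 6 h. The genes that fell took 52.4% and 53.0% at 3 h and 13.1% and 12.4% at 6 h. Among the genes that rose, 103 had a mean under 5 RPKM at 3 h, and 4 had no read in either 3 h library, so the changes of the lowest ones depend on the pseudocount of 1 RPKM. These passed the limit on the mean only through their 6 h level.

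**Figure D1:**
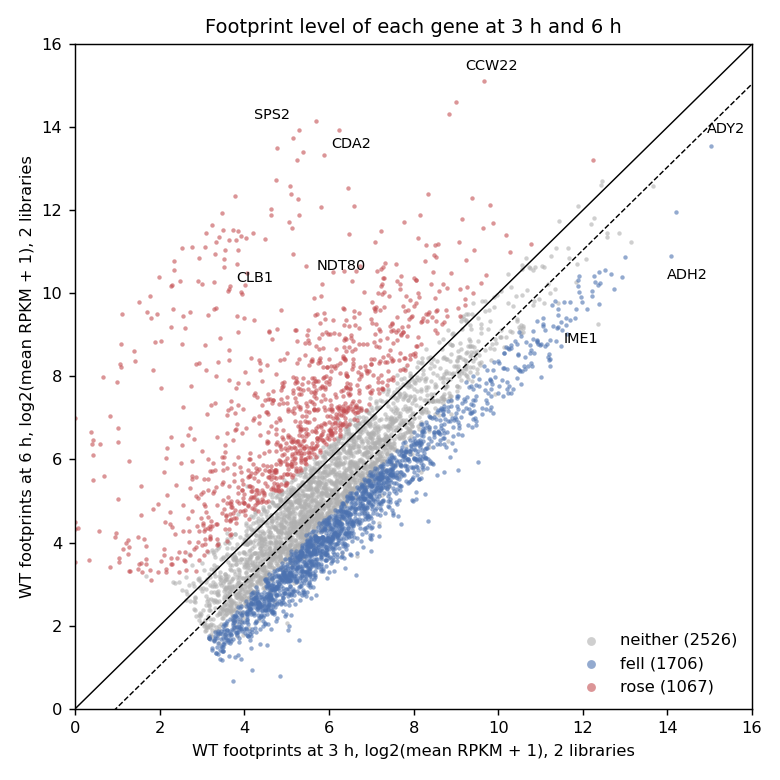
Mean WT footprint level of each of the 5299 genes at 3 h (x axis) and 6 h (y axis), as log2(RPKM + 1) over 2 libraries, coloured by whether the gene rose, fell or did neither on both scales. The solid line marks equal levels and the dashed line the all-gene median change of -0.96; genes that rose reach far above both lines, while genes that fell lie in a narrow band under the dashed one.

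Of the genes that fell, the one with the highest 3 h level was ADY2, an acetate transporter, at 33019.5 and 33501 RPKM at 3 h and 11736 and 12189.5 RPKM at 6 h (-0.50, SE 0.18, adjusted p = 0.040 in limma). It was followed by ACS1, an acetyl-CoA synthetase, at 18727 and 18715 RPKM at 3 h and 4205 and 3749 RPKM at 6 h (-1.26, SE 0.15, adjusted p = 1.6e-04). ADH2, the alcohol dehydrogenase that oxidises ethanol, had 15740.4 and 18858 RPKM at 3 h and 2104 and 1708 RPKM at 6 h (-2.20, SE 0.49, adjusted p = 0.0044). In all 3 genes both 6 h libraries lay far under both 3 h libraries in RPKM. The rest of the 10 fallers highest at 3 h were POR1, the mitochondrial porin, ALD4, a mitochondrial aldehyde dehydrogenase, RGI2, CIT2, a peroxisomal citrate synthase, PRB1, a vacuolar protease, SED1, a wall glycoprotein, and NCE103, a carbonic anhydrase. Leaving out a WT pair ended some of these calls: the adjusted p of ADY2 became 0.23 and 0.26 without WT replicate 3 or 4, and that of RGI2 0.077 and 0.19. Without WT replicate 4 alone it became 0.10 for ADH2, 0.055 for PRB1, 0.089 for SED1 and 0.077 for NCE103.

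At 6 h the highest level among genes that rose was that of CCW22, a wall protein gene whose paralogue is CCW12, at 849.6 and 760.2 RPKM at 3 h and 34268 and 36186 RPKM at 6 h (6.43, SE 0.32, adjusted p = 8.9e-07 in limma). YDR133C, whose systematic name is the one next to that of CCW22 and which is not in RefSeq, moved with it, from 554 and 476 to 23686 and 25850.1 RPKM. The strand setting of the counting is not given, so whether these neighbours share reads was not tested. CWP1, a mannoprotein of the wall, was at 444 and 469 RPKM at 3 h and 20222 and 20729 RPKM at 6 h. RRT5 rose from 60.04 and 40.7 to 18169.6 and 17894 RPKM and PIR5, of the Pir family of wall proteins, from 83.4 and 65.5 to 15401 and 15830.1 RPKM. The rest of this top 10 were SPS2, SPO19, SPR2, SPS4 and CDA2, each between 9861 and 15823 RPKM in every 6 h library. SPS2, RRT5, SPR2 and SPO19 were also among the 10 steepest rises of genes averaging at least 20 RPKM, with GIP1, RRT12, SPS1, ISC10, GAT4 and GAS2. These 10 rose by 9.34 to 9.73 on the log2 scale.

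Regulators of entry and of the Ndt80 switch were called at about the rate of all genes: of the 15 on the list, 3 rose (20.0% against 20.1%) and 4 fell (26.7% against 32.2%), with a median 0.42 above that of all genes. IME1, which starts the programme, had 3446 and 3239 RPKM at 3 h and 696 and 614 RPKM at 6 h, a fall of 1.37 (SE 0.28, limma adjusted p = 0.0029). RIM4, an RNA-binding protein that represses translation in meiosis, was at 5196 and 4791 RPKM at 3 h and 1271 and 1202 RPKM at 6 h (-1.03, SE 0.15, adjusted p = 4.6e-04). NDT80 moved the other way, from 38.2 and 48.03 to 1609 and 1607 RPKM (6.16, SE 0.27, adjusted p = 5.0e-07). Levels at the 2 times did not overlap for any of these. RFM1 and HST1, which act with the repressor Sum1 on middle meiotic genes, rose, by 1.81 (SE 0.15) and 5.61 (SE 0.17). SUM1 itself was not called after rescaling, with -0.11 rescaled at adjusted p = 0.62 and -1.01 in RPKM at adjusted p = 0.0024. IME2, the kinase that acts with Ime1, changed by 1.17 rescaled at adjusted p = 9.6e-05 and 0.19 in RPKM at adjusted p = 0.19, so it was called on only the rescaled values. The call of IME1 was lost without WT replicate 3 or 4, at an adjusted p of 0.054 and 0.077, as were those of RIM101, a regulator of entry, without replicate 4 (0.31) and RME1, a repressor of IME1 (0.32 and 0.21).

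Most recombination and synapsis genes fell: 27 of 35 fell (77.1% against 32.2% of all genes) and none rose (against 20.1%). The median lay 0.73 under that of all genes. Without WT replicate 4 the share of the list that fell was no longer above that of all genes in the same fit. The strand-exchange recombinase DMC1 had 2788 and 2965 RPKM at 3 h and 674 and 592 RPKM at 6 h (-1.21, SE 0.17, adjusted p = 3.9e-04 in limma). HOP1, a protein of the chromosome axis, went from 1799 and 1731 to 414 and 379.9 RPKM (-1.17, SE 0.24, adjusted p = 0.0029). REC8, the meiotic cohesin subunit, went from 917 and 909 to 195 and 170.0 RPKM (-1.34, SE 0.24, adjusted p = 0.0014), and SPO11, which makes the double-strand breaks, from 252 and 259 to 86.04 and 64.9 RPKM (-0.79, SE 0.27, adjusted p = 0.030). In each of these both 3 h libraries lay well above both 6 h libraries. ZIP1, of the synaptonemal complex, was called in RPKM only, with -0.37 rescaled at adjusted p = 0.14 and -1.35 in RPKM at adjusted p = 6.8e-04. The list held a share of the reads of 2.35% and 2.30% at 3 h and 0.700% and 0.637% at 6 h. Without WT replicate 3 or 4 only 9 and 3 members fell, the adjusted p being 0.060 and 0.083 for HOP1, 0.11 and 0.36 for SPO11 and, without replicate 4, 0.064 for REC8.

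Regulators of the meiotic divisions rose. Of 22 genes 14 rose (63.6% against 20.1% of all genes) and 2 fell (9.09% against 32.2%), SPO13 and SLK19. The median was 2.80 above that of all genes. Among the B-type cyclins, CLB1 went from 11.1 and 11.7 to 1125 and 1064 RPKM (7.40, SE 0.18, adjusted p = 2.2e-08 in limma) and CLB3 from 12.7 and 13.5 to 738 and 663 RPKM (6.58, SE 0.18, adjusted p = 3.6e-08). CLB4 rose from 32.7 and 38.7 to 544 and 569 RPKM, and CLB5 and CLB6, the cyclins of S phase, rose by 2.96 and 5.02. CLB2, a cyclin of mitotic cells, stayed low, at 8.79 and 4.92 RPKM at 3 h and 3.07 and 4.59 RPKM at 6 h, and was not called on either scale. CDC20, an activator of the anaphase-promoting complex, had 8.38 and 7.31 RPKM at 3 h and 709.5 and 723 RPKM at 6 h (7.26, SE 0.19, adjusted p = 3.1e-08). AMA1, the activator of that complex specific to meiosis, was already well covered at 3 h, with 276 and 274 RPKM at 3 h and 1015 and 1049.8 RPKM at 6 h (2.88, SE 0.19, adjusted p = 4.5e-06). The polo kinase CDC5 went from 26.00 and 20.1 to 514 and 549.7 RPKM (5.43, SE 0.16, adjusted p = 5.6e-08), and MAM1, the monopolin subunit that joins sister kinetochores in meiosis I, from 19.04 and 17.4 to 187 and 198 RPKM (4.28, SE 0.19, adjusted p = 5.0e-07). At 3 h the values of CLB1, CLB3 and CDC20 were between 7.31 and 13.5 RPKM, and at 6 h between 663 and 1125 RPKM, with no overlap.

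Genes of the prospore membrane and the sporulation septins formed 1 of the 2 lists that moved most. Of 25, 22 rose (88% against 20.1% of all genes) and 1, SPO1, fell (4% against 32.2%). The median was 6.70 above that of all genes. SPR3 and SPR28 are septins specific to sporulation. SPR3 had 22.9 and 24.5 RPKM at 3 h and 4093 and 4219 RPKM at 6 h (8.35, SE 0.14, adjusted p = 5.1e-09 in limma) and SPR28 had 35.5 and 40.2 RPKM at 3 h and 3774 and 3820.3 RPKM at 6 h (7.58, SE 0.20, adjusted p = 3.0e-08). SSP1, a coat protein at the leading edge of the membrane, went from 15.4 and 14.8 to 1144 and 1213 RPKM, and SPO21, of the meiotic outer plaque of the spindle pole body, from 11.4 and 10.98 to 1029 and 1088 RPKM. Another outer plaque gene, MPC54, started higher, at 356 and 331 RPKM, and rose by 1.98 (SE 0.20). SPO20, a SNARE of the prospore membrane, went from 4.43 and 3.71 to 1536 and 1480.1 RPKM, and GIP1, a subunit that directs protein phosphatase 1 to the septins, from 5.13 and 4.38 to 2241 and 2127 RPKM. CDC3 and CDC10, septins that dividing cells use too, rose by 4.71 and 5.04. The list held a share of the reads of 0.356% and 0.336% at 3 h and 5.32% and 5.30% at 6 h.

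Spore wall genes rose most. Of 30, 27 rose (90% against 20.1% of all genes), SRT1 fell (3.33% against 32.2%), and LDO16 and SPS100 did neither. The median was 8.04 above that of all genes. The chitin deacetylases CDA1 and CDA2, which make the chitosan layer, had 35.1 and 39.4 RPKM at 3 h and 4952 and 4991 RPKM at 6 h (7.99, SE 0.19, adjusted p = 1.9e-08 in limma) and 44.2 and 72.04 RPKM at 3 h and 9861 and 10676 RPKM at 6 h (8.45, SE 0.28, adjusted p = 1.1e-07). GAS2, an enzyme that builds spore wall glucan, rose from 10.3 and 6.65 to 3156 and 3222 RPKM, and SPS2 and SPS22, needed for the glucan layer, by 9.63 and 8.93. SMK1, the MAP kinase of spore wall assembly, had 5.52 and 7.46 RPKM at 3 h and 1248 and 1248 RPKM at 6 h (8.30, SE 0.20, adjusted p = 1.9e-08). LDS2, of the lipid droplets that accompany the growing wall, went from 24.8 and 23.1 to 3571 and 4035 RPKM (8.21, SE 0.15, adjusted p = 6.9e-09). The dityrosine enzymes DIT1 and DIT2 rose to far lower levels, DIT1 at 7.32 and 8.25 RPKM at 3 h and 34.1 and 41.5 RPKM at 6 h (3.04, SE 0.43, adjusted p = 4.3e-04) and DIT2 at 0.310 and 1.72 RPKM at 3 h and 31.6 and 32.2 RPKM at 6 h. GSC2, a glucan synthase subunit, was already at 255 and 278 RPKM at 3 h and rose by 3.24 (SE 0.14). SPS100, a late spore wall gene, changed by 0.64 rescaled at adjusted p = 0.18 and -0.18 in RPKM at adjusted p = 0.65. The list held a share of the reads of 0.480% and 0.472% at 3 h and 11.98% and 12.2% at 6 h. In all 27 risers the 2 times did not overlap in RPKM, as in all 1067 risers, all 1706 fallers and 2231 of the 2526 other genes.

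**Figure D2:**
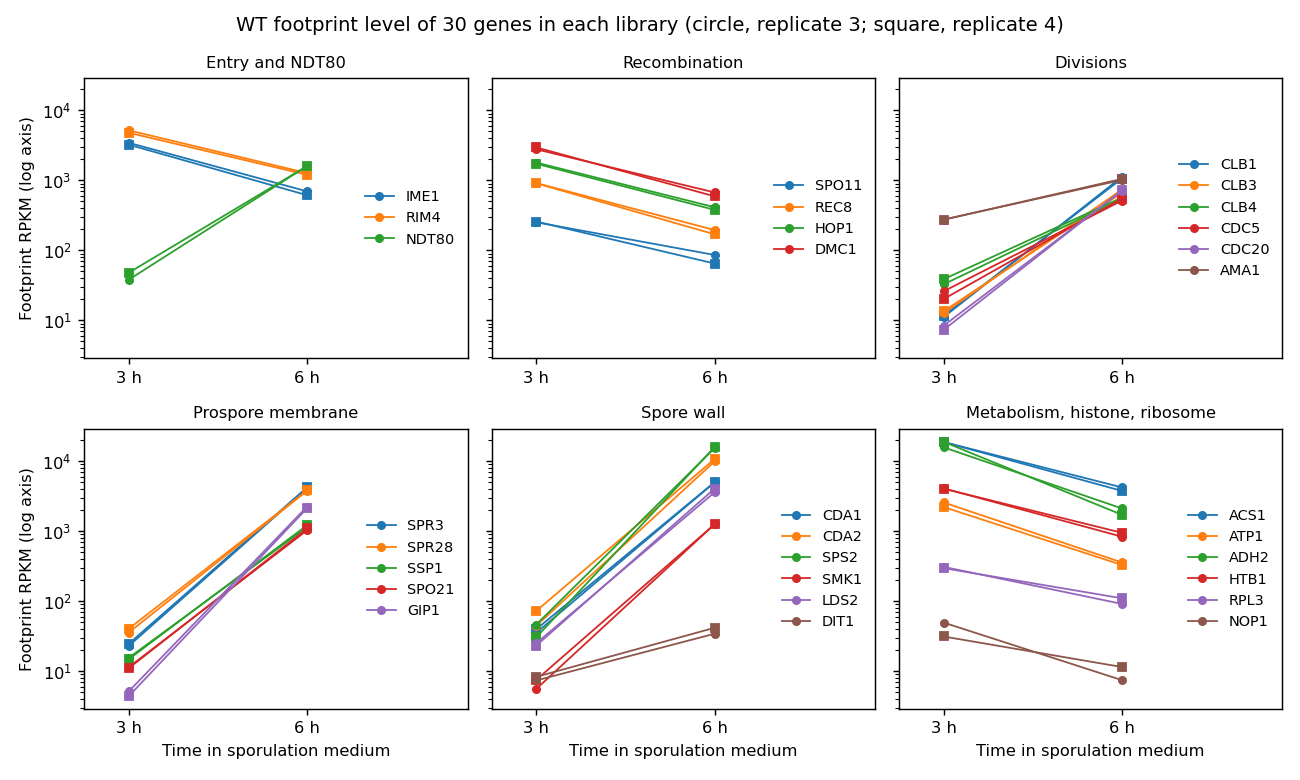
WT footprint level in RPKM (log axis) of 30 genes in each of the 4 libraries, at 3 h and 6 h, with lines joining libraries of the same replicate number only to guide the eye. NDT80, the cyclins, the prospore membrane genes and the spore wall genes climb, DIT1 to a lower level than the rest, while IME1, RIM4, the recombination genes and the genes of the last panel descend.

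Walls of vegetative cells use other genes, and most of these fell. Of 26, 18 fell (69.2% against 32.2% of all genes) and 2 rose (7.69% against 20.1%), with a median 1.27 under that of all genes. SCW10, a glucanase-like wall protein, had 24.2 and 31.5 RPKM at 3 h and 0.851 and 0.585 RPKM at 6 h (-3.37, SE 0.50, adjusted p = 5.7e-04 in limma). The wall protein genes PIR1 and CCW12 went from 283 and 130.3 to 13.3 and 28.01 RPKM and from 342 and 230.1 to 35.9 and 56.3 RPKM. PIR1 differed between replicates at both times, and the SE of its change, -2.29, was 0.73. FKS1, the glucan synthase subunit of growing cells and paralogue of GSC2, was called in RPKM only (-0.39 rescaled at adjusted p = 0.10 and -1.33 in RPKM at adjusted p = 4.7e-04). The risers were CWP1 and CIS3. With the high 6 h level of CWP1, the share of the reads held by the list was 1.05% and 1.21% at 3 h and 1.60% and 1.66% at 6 h. Without WT replicate 3 or 4, 11 and 10 members fell, and without replicate 3 the adjusted p was 0.14 for CCW12 and 0.36 for PIR1.

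Acetate is the carbon source of sporulating yeast, and most genes that take it up and burn it fell. On the list of TCA cycle, glyoxylate cycle and acetate use, 23 of 37 fell (62.2% against 32.2% of all genes). The 2 that rose were 5.41% of the list, against 20.1%, and the median was 0.93 under that of all genes. JEN1, a lactate transporter, had 730.0 and 731 RPKM at 3 h and 64.2 and 56.8 RPKM at 6 h (-2.60, SE 0.14, adjusted p = 1.7e-06 in limma). MLS1, the malate synthase of the glyoxylate cycle, went from 3894 and 4056 to 917 and 1001 RPKM (-1.07, SE 0.34, adjusted p = 0.023), while ICL1, its isocitrate lyase, was not called after rescaling, with -0.68 rescaled at adjusted p = 0.21 and -1.66 in RPKM at adjusted p = 0.0086. CIT1, the mitochondrial citrate synthase, was likewise called in RPKM only, with -0.13 rescaled at adjusted p = 0.60 and -1.11 in RPKM at adjusted p = 8.4e-04. The list held a share of the reads of 17.6% and 17.05% at 3 h and 5.70% and 5.46% at 6 h. Nuclear-encoded genes of oxidative phosphorylation had 25 of 37 that fell (67.6% against 32.2% of all genes) and none that rose (against 20.1%). Their median was 0.96 under that of all genes. ATP1 and ATP2, the large subunits of the ATP synthase, fell by 1.82 and 1.68, COX4 by 1.19 and CYT1, cytochrome c1, by 1.27. MLS1 was no longer called without WT replicate 3 or 4, at an adjusted p of 0.18 and 0.18. Falls on the oxidative phosphorylation list then numbered 16 and 18, and on the acetate list 16 and 15.

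Of 20 glycolysis and gluconeogenesis genes 11 fell (55% against 32.2% of all genes) and 2 rose (10% against 20.1%). The risers were HXK2, a hexokinase, and PYC2, a pyruvate carboxylase, and the median was 1.24 under that of all genes. Without WT replicate 4 the share of the list that fell was under that of all genes in the same fit. TDH3, a glyceraldehyde-3-phosphate dehydrogenase with near-identical copies, had 974 and 1433 RPKM at 3 h and 214 and 174 RPKM at 6 h (-1.63, SE 0.49, adjusted p = 0.018 in limma), and PGK1 had 392 and 685 RPKM at 3 h and 115 and 109.6 RPKM at 6 h (-1.22, SE 0.33, adjusted p = 0.011). Both varied more between the 3 h replicates than between the 6 h ones. The gluconeogenic PCK1 and FBP1 were not called after rescaling, PCK1 with -0.17 rescaled at adjusted p = 0.75 and -1.15 in RPKM at adjusted p = 0.043 and FBP1 with -1.38 rescaled at adjusted p = 0.056 and -2.36 in RPKM at adjusted p = 0.0033. Without WT replicate 3 or 4 the falls numbered 7 and 0, with an adjusted p of 0.072 and 0.25 for TDH3 and, without replicate 4, 0.21 for PGK1. Among 19 genes of glycogen and trehalose, 3 rose (15.8% against 20.1% of all genes) and 7 fell (36.8% against 32.2%). SGA1, the glucoamylase that breaks down glycogen in sporulation, stood apart at 19.9 and 22.7 RPKM at 3 h and 2450.0 and 2627 RPKM at 6 h (7.79, SE 0.16, adjusted p = 1.3e-08), and TPS1, of trehalose synthesis, rose by 1.60, a call lost without WT replicate 3 at an adjusted p of 0.40. GPH1, glycogen phosphorylase, went from 113 and 174 to 39.9 and 31.5 RPKM (-0.99, SE 0.31, adjusted p = 0.020), and had an adjusted p of 0.39 without WT replicate 4. Falls on the glycogen and trehalose list numbered 2 and 1 without WT replicate 3 or 4.

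Genes of the translation machinery were read list by list. Among 134 genes of cytosolic ribosomal proteins, 34 fell, which at 25.4% is under the 32.2% of all genes, 2 rose and 98 did neither, with a median 0.35 under that of all genes. RPL3 had 308 and 295 RPKM at 3 h and 91.01 and 109 RPKM at 6 h (-0.61, SE 0.24, adjusted p = 0.049 in limma), and RPS3 was called in RPKM only (-0.66 rescaled at adjusted p = 0.11 and -1.62 in RPKM at adjusted p = 0.0021). Falls on this list numbered 4 and 6 without WT replicate 3 or 4, 63 without deletion replicate 2 and 22 by limma-voom. Many of these genes have near-identical copies, whose reads the counting may have split. Among the 94 measured genes of ribosome biogenesis, 48 fell and 7 rose, with a median 0.74 under that of all genes, and without WT replicate 3 or 4 the falls numbered 3 and 19. With all libraries, the shares of this list that fell and rose were 51.1% and 7.45%, against 32.2% and 20.1% of all genes. Without WT replicate 3 the share that fell was under that of all genes in the same fit. NOP1, the methyltransferase of ribosomal RNA, went from 49.3 and 31.2 to 7.41 and 11.4 RPKM (-1.05, SE 0.38, adjusted p = 0.036) and NOP2 from 28.1 and 20.5 to 4.73 and 8.91 RPKM. The adjusted p was then 0.50 and 0.056 for NOP1, 0.38 and 0.19 for RPL3 and, without replicate 3, 0.61 for NOP2. Mitochondrial ribosomal protein genes did not move as 1 group: 18 of 65 rose (27.7% against 20.1% of all genes) and 12 fell (18.5% against 32.2%). The median of this list was 0.46 above that of all genes. MRPS17 rose from 77.8 and 56.2 to 1463 and 1449.9 RPKM (5.41, SE 0.17, adjusted p = 7.7e-08) and MRPL37 from 163 and 140.0 to 955 and 1054 RPKM, while MRPL3 fell from 58.7 and 44.4 to 13.6 and 12.3 RPKM. Its falls numbered 2 and 5 without WT replicate 3 or 4, with an adjusted p of 0.073 for MRPL3 without replicate 3.

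Of 44 translation factors, 6 rose (13.6% against 20.1% of all genes) and 17 fell (38.6% against 32.2%), and the median was 0.15 under that of all genes. PAB1, the poly(A)-binding protein, rose from 254 and 229 to 910.5 and 909.8 RPKM (2.89, SE 0.20, adjusted p = 6.4e-06 in limma). HYP2, the factor eIF5A, fell from 4319.8 and 4489.9 to 729 and 853 RPKM (-1.50, SE 0.15, adjusted p = 6.8e-05), and SUP35, a release factor, from 164 and 167 to 45.6 and 46.8 RPKM. DED1, a DEAD-box helicase of initiation, and its paralogue DBP1 fell by 1.10 and 0.46, with an adjusted p of 0.022 for DBP1 in limma. What leaving out a WT replicate did to these calls was not read. CDC33, the cap-binding protein, was called in RPKM only (-0.10 rescaled at adjusted p = 0.67 and -1.07 in RPKM at adjusted p = 0.0019). The falls without WT replicate 3 or 4 numbered 4 and 5, with an adjusted p of 0.12 and 0.13 for SUP35. Of the 20 cytosolic aminoacyl-tRNA synthetases 6 rose (30% against 20.1% of all genes) and 7 fell (35% against 32.2%). Among them MES1 rose from 5.17 and 3.32 to 41.7 and 40.2 RPKM, and KRS1 fell from 125 and 113 to 19.3 and 20.2 RPKM. The falls among synthetases then numbered 2 and 3.

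Amino acid biosynthesis, autophagy and chaperone genes showed no common direction. Of 78 amino acid genes 12 rose and 26 fell, at 15.4% and 33.3% near the shares of all genes, with a median 0.03 under that of all genes. ARG4 rose from 81.99 and 92.6 to 189 and 182 RPKM (2.05, SE 0.13, adjusted p = 4.3e-06 in limma) and LYS2 from 66.7 and 68.1 to 125 and 129 RPKM, while CPA1 fell from 587 and 472 to 53.8 and 51.2 RPKM (-2.33, SE 0.49, adjusted p = 0.0034) and ARG1 from 499 and 391 to 96.9 and 104 RPKM. Without WT replicate 3 or 4 the adjusted p of CPA1 was 0.069 and 0.058, that of ARG1 without replicate 3 was 0.070, and falls on the list numbered 9 and 9. Among the 39 genes of autophagy and vacuolar proteases, 9 rose and 9 fell (23.1% each, against 20.1% and 32.2% of all genes). ATG8, the ubiquitin-like protein of the autophagosome, was at 2851 and 2691 RPKM at 3 h and 3348 and 3464 RPKM at 6 h and was called after rescaling only (1.28 rescaled at adjusted p = 3.1e-04 and 0.30 in RPKM at adjusted p = 0.18). PEP4, the vacuolar protease that activates the others, changed sign with the scale (0.61 rescaled at adjusted p = 0.034 and -0.37 in RPKM at adjusted p = 0.18), and PRB1 fell (-0.99, SE 0.15, adjusted p = 6.1e-04). In this list there were, without WT replicate 3 or 4, 6 and 7 rises and 3 and 0 falls, and PRB1 had an adjusted p of 0.055 without replicate 4. Of 39 heat shock and chaperone genes 10 rose (25.6% against 20.1% of all genes) and 6 fell (15.4% against 32.2%). HSP26, a small heat shock protein, went from 137 and 159 to 315 and 340.1 RPKM (2.12, SE 0.21, adjusted p = 6.2e-05), SSA4, an inducible Hsp70, from 12.9 and 14.7 to 51.2 and 60.6 RPKM and ERO1, the oxidase of the endoplasmic reticulum, from 46.6 and 47.9 to 318 and 336 RPKM. The chaperone list had, without WT replicate 3 or 4, 6 and 6 rises and 0 and 0 falls.

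The proteasome stayed close to the typical gene, with a median 0.06 under that of all genes and a range of -1.22 to 0.89. Of 36 genes none rose (against 20.1% of all genes) and 4 fell (11.1% against 32.2%). The falls were BLM10, an activator of the core, RPN13, a ubiquitin receptor, UMP1, an assembly factor, and RPN4, the transcription factor of proteasome genes. BLM10 had 57.3 and 52.3 RPKM at 3 h and 12.8 and 10.4 RPKM at 6 h (-1.22, SE 0.19, adjusted p = 7.3e-04 in limma). RPN4 went from 291 and 291 to 114 and 115 RPKM (-0.37, SE 0.13, adjusted p = 0.034), and without WT replicate 3 or 4 its adjusted p was 0.29 and 0.36, and that of RPN13 0.21 and 0.26. RPN11, the lid deubiquitinase, changed sign with the scale (0.47 rescaled at adjusted p = 0.014 and -0.51 in RPKM at adjusted p = 0.0088). The list had 1 and 1 falls without WT replicate 3 or 4, and 14 without deletion replicate 2.

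Most genes of histones and DNA replication fell, 25 of 40 (62.5% against 32.2% of all genes), and 3 rose (7.5% against 20.1%). The median was 0.68 under that of all genes. HTB1, a histone H2B, had 4078 and 4034 RPKM at 3 h and 831 and 945 RPKM at 6 h (-1.21, SE 0.14, adjusted p = 1.2e-04 in limma). POL30, the sliding clamp, went from 289 and 295 to 67.7 and 79.1 RPKM (-1.01, SE 0.18, adjusted p = 0.0015), MCM2, of the replicative helicase, from 56.5 and 57.4 to 17.7 and 15.5 RPKM (-0.78, SE 0.17, adjusted p = 0.0046) and RNR1, of ribonucleotide reductase, from 295 and 273 to 77.9 and 90.8 RPKM (-0.77, SE 0.21, adjusted p = 0.012). HHO1, the linker histone, rose (1.63, SE 0.18, adjusted p = 9.1e-05), as did ORC4 and ORC5. Without WT replicate 3 or 4 the falls numbered 6 and 9, with an adjusted p of 0.061 and 0.15 for MCM2, 0.21 and 0.10 for RNR1 and, without replicate 3, 0.065 for POL30. Core histone genes come in near-identical pairs whose reads may be split.

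**Figure D3:**
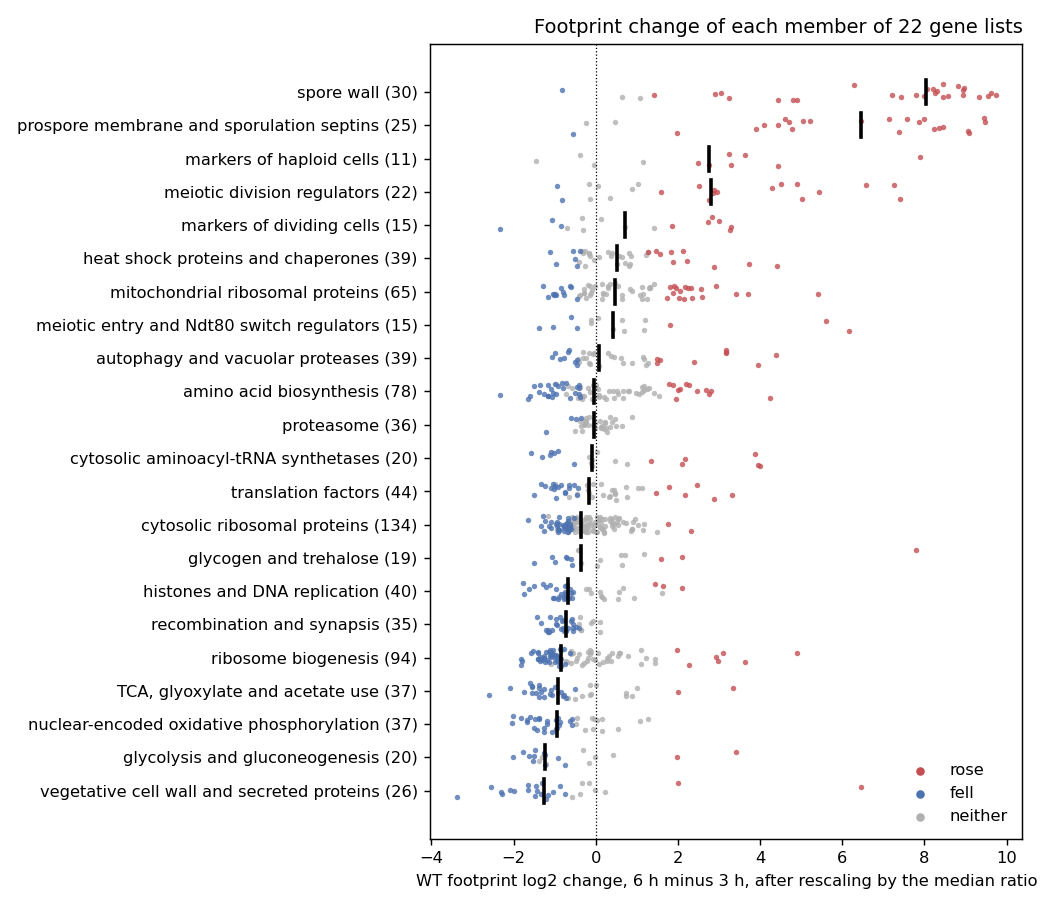
Rescaled log2 change (6 h minus 3 h) of WT footprints for each tested member of the 22 gene lists, with the number tested in brackets, a black bar at the list median and colours for members that rose, fell or did neither. The spore wall and prospore membrane medians stand at 8.03 and 6.46, and the vegetative wall and glycolysis lists lie lowest.

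A sporulating culture can hold cells that did not enter meiosis, so 2 marker lists were read beside these. Of 20 markers of dividing cells 15 passed the limit, and 6 rose (40% against 20.1% of all genes) and 3 fell (20% against 32.2%). The list summed to 315 and 250 RPKM at 3 h and 406 and 423 RPKM at 6 h. HOF1, of cytokinesis, rose from 8.29 and 7.39 to 44.1 and 45.6 RPKM and HST3 from 44.2 and 36.96 to 192 and 217 RPKM. The fallers DSE1, ASH1 and BNI4 had means of 32.0, 19.8 and 42.7 RPKM at 3 h. At 6 h these were 2.70, 4.50 and 11.9 RPKM. CLB2, as above, stayed under 9 RPKM in all 4 libraries. Of 21 markers of haploid cells 11 passed, and 7 rose (63.6% against 20.1% of all genes) and none fell. Their list had a sum of 151 and 147 RPKM at 3 h and 1918 and 1982 RPKM at 6 h. STE18, a G protein subunit of the mating pathway, made up most of that sum at 6 h, going from 16.8 and 9.49 to 1652 and 1713 RPKM (7.88, SE 0.27, adjusted p = 1.2e-07 in limma), and AXL1, a protease that matures a-factor, went from 3.74 and 2.91 to 50.5 and 51.95 RPKM. AXL1 averaged 3.32 RPKM at 3 h and passed the limit only through its 6 h level. Among genes low at 3 h the limit favours risers, which bears on the share of 63.6%. STE2, the receptor for alpha-factor, did not pass the limit and was read 1 and 0 times at 3 h, then 4 and 3 times at 6 h. The part of such cells in the results above was not tested.

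**Figure D4:**
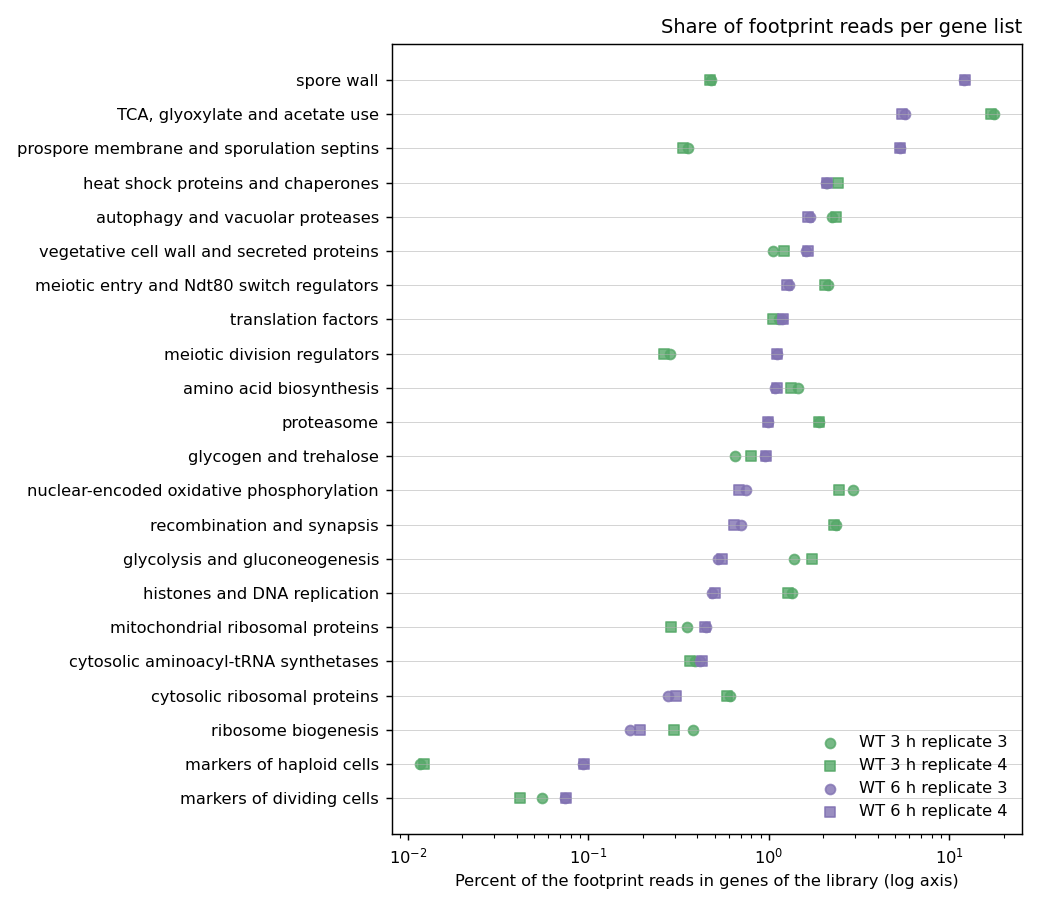
Percent of the footprint reads in genes of each WT library (log axis) that fell in each of the 22 gene lists, with circles for replicate 3 and squares for replicate 4. The 2 replicates of a time lie close together in most lists, and the spore wall list moves from under 0.5% to about 12% while acetate use drops from 17% or more to under 6%.

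Footprint changes followed mRNA changes across genes. The Spearman correlation of the rescaled changes was 0.906 over genes, which are not independent replicates. Of the 1067 genes that rose in footprints, 1060 had both 6 h mRNA libraries above both 3 h ones after rescaling, and of the 1706 that fell 1593 had both below. Of the 2526 genes that did neither in footprints, 1249 had both above and 861 had both below. The footprint change exceeded the mRNA change in 550 of 5282 genes tested in limma, 10.4%, and was under it in 351, 6.65%. In RPKM as deposited, nearly the same amount is added to every difference, so it was nearly fixed in advance that all 550 stayed higher. This is no check of them. Of the 351, only 197 were lower on that scale. Leaving out 1 WT replicate of 1 kind of library lowered these counts: without footprint replicate 3 or 4 they were 210 and 224 higher and 248 and 235 lower, and without mRNA replicate 3 or 4 they were 89 and 236 higher and 125 and 158 lower. Of the 25 prospore membrane genes 11 had a footprint change above their mRNA change and none below, and of the 30 spore wall genes 8 and none. Without footprint replicate 3 or 4 the genes above numbered 7 and 6 on the prospore membrane list and 2 and 1 on the spore wall list, and without mRNA replicate 3 or 4 they numbered 7 and 14, then 3 and 22. The 18 genes named below as having a difference were called in all 4 of these fits.

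NDC80, a kinetochore gene whose mRNA is known to come in a long form that is poorly translated in early meiosis, had footprints at 6.07 and 5.86 RPKM at 3 h and 87.5 and 90.4 RPKM at 6 h. Its mRNA was at 259 and 272 RPKM at 3 h and 207 and 219.9 RPKM at 6 h, so the footprint change exceeded the mRNA change (3.52, SE 0.11, adjusted p = 9.0e-06 in limma). The mRNA of MES1, the methionyl-tRNA synthetase, was at 148 and 161 RPKM at 3 h and 62.1 and 61.7 RPKM at 6 h, against the footprints given above (3.82, SE 0.20, adjusted p = 2.8e-05). POP4, of RNase P, had footprints at 7.84 and 6.23 RPKM at 3 h and 67.1 and 77.4 RPKM at 6 h and mRNA at 250.1 and 229.8 RPKM at 3 h and 117 and 126 RPKM at 6 h (3.69, SE 0.16, adjusted p = 1.5e-05). With TPH3 and CNM1, at 3.91 and 3.57, these are the 5 largest such differences among called genes that averaged at least 20 RPKM in WT footprints and in WT mRNA. CLB3 (2.35, SE 0.13, adjusted p = 2.9e-05) and GIP1 (2.87, SE 0.26, adjusted p = 4.3e-04) lay in the same class, whereas CLB4 and CDC5 were not called. In 3 h footprints MES1, GIP1 and CNM1 averaged under 5 RPKM, with 2.4 for CNM1. They passed the limit of 5 RPKM for testing only through their 6 h level. NDC80, MES1, POP4 and CNM1 likewise met the limit of 20 RPKM for footprints only through 6 h.

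In the other direction MED7, of the Mediator complex, had footprints at 38.7 and 41.5 RPKM at 3 h and 7.44 and 3.91 RPKM at 6 h while its mRNA was at 65.9 and 64.3 RPKM at 3 h and 233 and 260.2 RPKM at 6 h (-5.05, SE 0.33, adjusted p = 7.5e-05 in limma). ORC1, of the origin recognition complex, had footprints at 55.2 and 48.7 RPKM at 3 h and 13.6 and 11.5 RPKM at 6 h and mRNA at 77.6 and 72.97 RPKM at 3 h and 179 and 180.4 RPKM at 6 h (-3.64, SE 0.15, adjusted p = 1.2e-05). SOM1, SRP21, of the signal recognition particle, and CMG1, at -3.66, -3.42 and -3.22, complete the 5 largest under the same limit of 20 RPKM. Some genes under that limit differed by more, in both directions. ADY2, ICL1, PCK1, PEP4, ATG1 and ATG8 were in the lower class too, between -2.43 for ICL1 and -1.39 for ATG8. In MED7, SOM1, ORC1 and SRP21 footprints fell, and in none of these did the 2 times overlap. The fall of SRP21 had an adjusted p of 0.096 without WT replicate 3, and that of ORC1 0.062 without WT replicate 4.

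**Figure D5:**
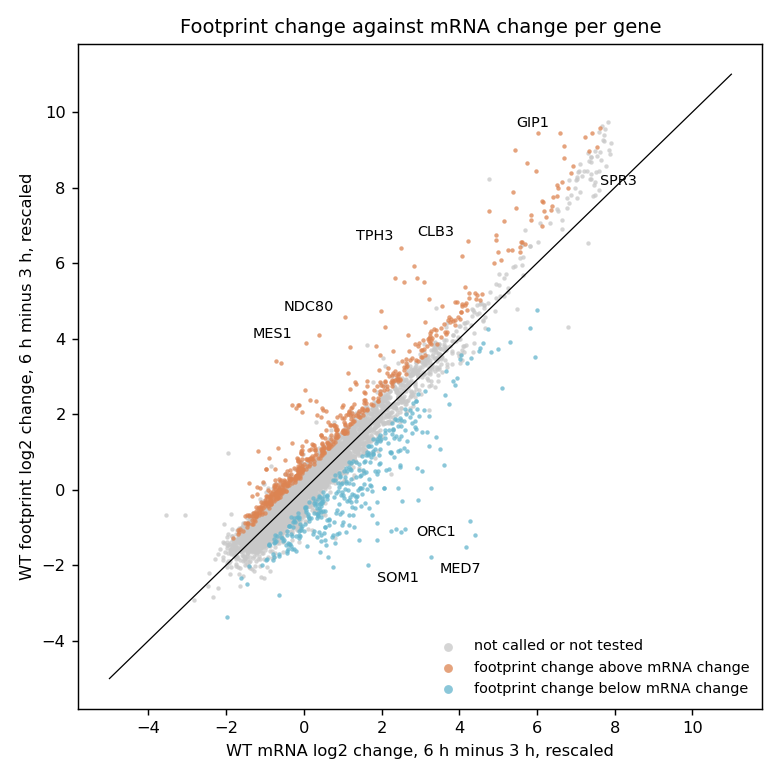
Rescaled log2 change of WT footprints (y axis) against that of WT mRNA (x axis) for each gene, 6 h minus 3 h, with the line of equal change and colours for genes whose 2 changes differed in limma. Most genes follow the line, NDC80, MES1 and TPH3 stand above it, and MED7, SOM1 and ORC1 stand under it.

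The same times in the deletion strain, whose libraries entered the WT fit through the estimate of spread and the reference for rescaling, gave the following values. After rescaling, all 1067 genes that rose in WT had both 6 h deletion libraries above both 3 h ones, against 41.0% of all genes tested. Of the 1706 that fell, 1658 had both below, against 41.2% of all genes, and 1, TRR2, had both above. The change in the deletion was 5.60 for NDT80, 7.27 for CLB1, 7.69 for SPR3, -1.31 for IME1 and -1.15 for DMC1, beside 6.16, 7.40, 8.35, -1.37 and -1.21 in WT. The test of the difference between the strains in this change called 0 of 5299 genes in RPKM, where 77 had an unadjusted p under 0.05, and 1 after rescaling, where 66 had.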

How the data were processed

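Size selection, per the labels' protocols, was at 28 to 31 nt for footprints and 50 nt for mRNA. The deposited table gives RPKM, as computed by the authors, for 6679 genes, each library in its own column. Per the submitters' processing notes the tools include CASAVA, bcl2fastq 2.17 and Bowtie2. How reads were counted, whether strand was used and which genome build served are not stated in the sources used here. RefSeq names (R64) matched 5994 IDs.

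The 5299 genes averaging 5 RPKM or more in WT footprints were tested on log2(RPKM + 1), which understates the change of low genes, with limma 3.58.1 (trend, two-sided, Benjamini-Hochberg, threshold 0.05) in R 4.3.3. All 8 footprint libraries entered as 4 group means. The fit was run on RPKM and on values divided by each library's median ratio. The footprint minus mRNA change was an interaction term over the 8 WT libraries, for genes reaching 5 RPKM in both kinds. In the titles, footprint and mRNA libraries of the same strain, time and replicate carry the same sample number. That pairing was not in the model, so its p-values treat the 8 libraries as independent. Deletion mRNA was left out because 1 such library did not match its labelled time. Whole reads were recovered from RPKM steps (tolerance 0.02, with 60 bases less than the coding length for 5089 genes) for depth and limma-voom. WT replicates differed by more than sampling noise, with a mean chi-square of 12.2 at 3 h and 3.85 at 6 h, where sampling alone gives about 1, so none was counted as deposited again. On simulated footprint data, limma recovered 45 of 50 genes changed by 1 and 50 of 50 changed by 2 in each direction, with 12 false calls among 5285 genes. For footprint minus mRNA it recovered 25 of 50 genes raised by 1 and 34 of 50 lowered by 1. All 50 changed by 2 in each direction were recovered, with 13 false calls among 5262. Genes not changed kept 1 mean in every library, and the fit was on RPKM alone. A shift of the all-gene median and the rule of 2 scales were therefore not tested.

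The comparison and the 22 gene lists were chosen with earlier results of these data known. Named genes were the key genes of each list, up to 2 further members of smallest p in its main direction, the 10 highest genes each way, the 10 most changed each way and the 5 largest footprint minus mRNA differences each way; the last 2 rules took genes averaging at least 20 RPKM. Alternatives were other pseudocounts, filters and scalings, no trend, a replicate block and leaving out each replicate. Plots used matplotlib 3.10.9 (Python 3.11.15).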

Additional observations from a re-analysis of the deposited data

Results flagged for a closer look

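The 6 h against 3 h footprint change of YBL039C-A differed between the strains in limma after rescaling, by -4.66 on the log2 scale (deletion minus WT, SE 0.45, adjusted p = 0.037), and not in RPKM (adjusted p = 0.080). It had 1 read in each of the 4 WT footprint libraries, 2 and 3 reads in the deletion at 3 h and 0 reads in the deletion at 6 h. A count of 0 allows up to 3 reads, so this difference was not detectable at the depth of these libraries.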

How the results depend on the processing

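With the libraries rescaled by the median ratio, genes higher went from 1067 to 1917 and genes lower from 3354 to 1706. Upper-quartile scaling after that moved the genes lower from 1706 to 2850, with an all-gene median of -0.63. It shared all 1067 risers and all 1706 fallers with the calls on both scales. Its factor lay between no rescaling and the median ratio in every footprint library. This overlap was therefore nearly fixed in advance and is no check of the calls. Leaving out 1 replicate gave 811 to 1145 genes higher and 2633 to 3508 lower in RPKM, and 1327 to 2092 higher and 567 to 1976 lower after rescaling. Of the 1706 fallers, 659 and 565 were shared with the calls made without WT replicate 3 and 4. The footprint minus mRNA counts of 550 and 351 became 2704 and 198 with RPKM as deposited. Replicate numbers did not pair the WT footprint libraries (correlation of deviations -0.03 across genes), and the replicate block gave 1067 higher and 3371 lower in RPKM, 1916 and 1723 after rescaling, and 326 and 260 for footprint minus mRNA. Limma-voom on recovered reads gave 1079 and 3349. Among named genes called after rescaling, the sign reversed for PEP4, RPN11 and UME6, all above 0 rescaled. With the upper quartile and in RPKM they were at -0.017 and -0.37, -0.16 and -0.51, and -0.20 and -0.55. The 2339 values compared for named genes held no other reversal of a called gene. Changes of sign in genes not called after rescaling were not counted. CMG1 is such a gene, at 0.06 rescaled with mean levels of 42.4 RPKM at 3 h and 22.4 RPKM at 6 h. Leaving out 1 WT replicate of 1 kind of library, an alternative added after seeing the data, gave 89 to 236 higher and 125 to 248 lower for footprint minus mRNA; the lone libraries of that kind are assumed to vary like the other kind. Not run were footprint minus mRNA with a replicate number left out of both kinds, which leaves 1 library a group, and the promoter motif shares, for which no sequence was used here. Depth limits genes near 5 RPKM, at a median of 27 reads.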

Other observations

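The gene lists held 881 of the 5299 genes tested (16.6%), 161 of the 1067 that rose (15.1%) and 310 of the 1706 that fell (18.2%). A few genes, chosen after their values were seen, moved in footprints against their mRNA after rescaling. In 7 of the 1067 risers both 6 h WT mRNA libraries lay below both 3 h ones after rescaling: GDT1, IML1, MNE1, SSB2, TFB2, TPO4 and YML089C. This choice fixes the sign of their footprint minus mRNA difference, so no test is given. MNE1 had footprints at 1.81 and 1.01 RPKM at 3 h and 13.002 and 14.6 RPKM at 6 h, while its mRNA went from 509.9 and 462 RPKM to 119 and 126 RPKM. TPO4, a polyamine transporter, had footprints at 1.02 and 1.35 RPKM at 3 h and 14.5 and 12.2 RPKM at 6 h, beside mRNA at 106 and 104 RPKM and then 23.8 and 24.6 RPKM. SSB2, an Hsp70 of the ribosome, has a near-identical copy, SSB1, which did not rise, so its reads are uncertain.

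Conversely, 57 of the 1706 fallers had both 6 h mRNA libraries above both 3 h ones after rescaling, again with the sign of the difference fixed by the choice. They included GBP2, an mRNA export protein, UTP6, of ribosome biogenesis, BUB3, of the spindle checkpoint, and PRS2, beside MED7, ORC1, SRP21 and SUP35 named earlier. In RPKM, however, the mRNA of most of the 57 did not rise. It rose on that scale for GBP2, UTP6, MED7, ORC1 and SRP21. For BUB3 it went from 154 and 156 RPKM at 3 h to 103 and 99.1 RPKM at 6 h. It also fell for PRS2 and SUP35, so for these 3 genes the contrast rests on the rescaling.

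Genes that rose had a median coding length of 1269 bases and genes that fell 1164, against 1206 over all genes tested. Of the risers with a neighbour in RefSeq, 38.9% lay next to another riser, against 33.5% of all genes, and of the fallers 52.3% lay next to another faller, against 50.3%.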
